A study of Caenorhabditis elegans with 16 samples.

Results

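The response of young adult Caenorhabditis elegans to 6 h without food was read from messenger RNA of whole animals. It rests on 8 of the 16 libraries of the series: 4 from young adults of the wild-type strain N2 Bristol fasted for 6 h, and 4 from young adults of the same strain with food freely available. All of the animals were kept on NGM agar plates at 20 °C, and no transgene or mutation is named. RNA came from whole nematodes, so intestine, muscle, neurons, skin, germline and any eggs held inside the animal were measured together, and fewer cells of a type cannot be told apart from less RNA per cell. The labels do not say whether the 4 libraries of a group came from separate cultures, nor how many animals went into each, so p-values here measure no more than the spread from library to library. By their well codes the fasted libraries sat in plate rows E to H and the fed ones in rows A to D, and plate row and feeding state cannot be told apart.

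The nematode intestine digests bacteria, stores fat and makes yolk for the oocytes. When food is withdrawn, lipases free fatty acids from stored triglyceride, acyl-CoA synthetases activate them, and mitochondria and peroxisomes shorten them to acetyl-CoA. The glyoxylate cycle, which nematodes share with plants and bacteria, then lets acetyl-CoA carbon enter sugar synthesis. The nuclear receptor NHR-49, the lysosome and autophagy regulator HLH-30 and the insulin pathway factor DAF-16 are known regulators of this state.

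Depth per library ran between 58.4 and 78.4 M counts in the fasted group and between 76.9 and 90.4 M in the fed group (M, 1e6). Genes with a count above 0 numbered 18657 to 18943 in fasted and 18215 to 18434 in fed libraries, so the shallower group had the larger number of detected genes. In a principal component analysis the leading axis, with 81.4% of the variance, set fasted apart from fed libraries, and the next axis took 3.77%. The annotated ribosomal RNA gene took 2.36 to 5.97% of counts in fasted and 1.96 to 6.22% in fed libraries, and the ranges overlapped. Levels below are counts per 1e6 counts (CPM) after TMM scaling, given by library or as mean ± SD (n = 4 libraries per group). Differences are log2 fold changes of fasted over fed ± SE, tested with edgeR's quasi-likelihood test, and a gene was called at a Benjamini-Hochberg adjusted p under 0.05 over all 16139 tested genes. Only called genes are said to rise or fall, and an amount given with these words is on the log2 scale.

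Most of the transcriptome differed between the groups. Of the tested genes, 74.7% were called: 6185 (38.3%) were higher and 5865 (36.3%) lower in fasted animals, while 4089 were not called. In 11067 genes (68.6%) the 4 fasted and 4 fed libraries did not overlap. The spread within groups was small, with a common coefficient of variation of 5.76%, so that many calls were of small size. At least 2-fold changes were called in 2188 genes upward (13.6%) and in 1196 downward (7.41%). At 8-fold or more there were 264 genes upward and 136 downward, and at 64-fold or more 46 upward and 11 downward. The split of calls depended on scaling: 51.3% of calls were upward with TMM, against 57.9% with upper-quartile scaling and 68.2% when libraries were scaled by their totals alone, which moved the median of all genes upward by 0.19 on the log2 scale. When the spread of the day 8 libraries entered the fit, the calls of bli-1, cki-1, col-93, daf-16, dpy-7, elo-4, elo-7, emb-9, fib-1, fmo-4, got-1.2, gsy-1, let-2, let-363, lgg-3, lipl-5, mmcm-1, myo-3, pck-3, pfk-1.2, prx-19, raga-1, ragc-1, sms-1, unc-54, uroc-1, vit-2, vit-5 and vit-6 were lost. Changes below are read relative to the bulk of genes, and groups whose direction turned with scaling are named as such.

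**Figure D1:**
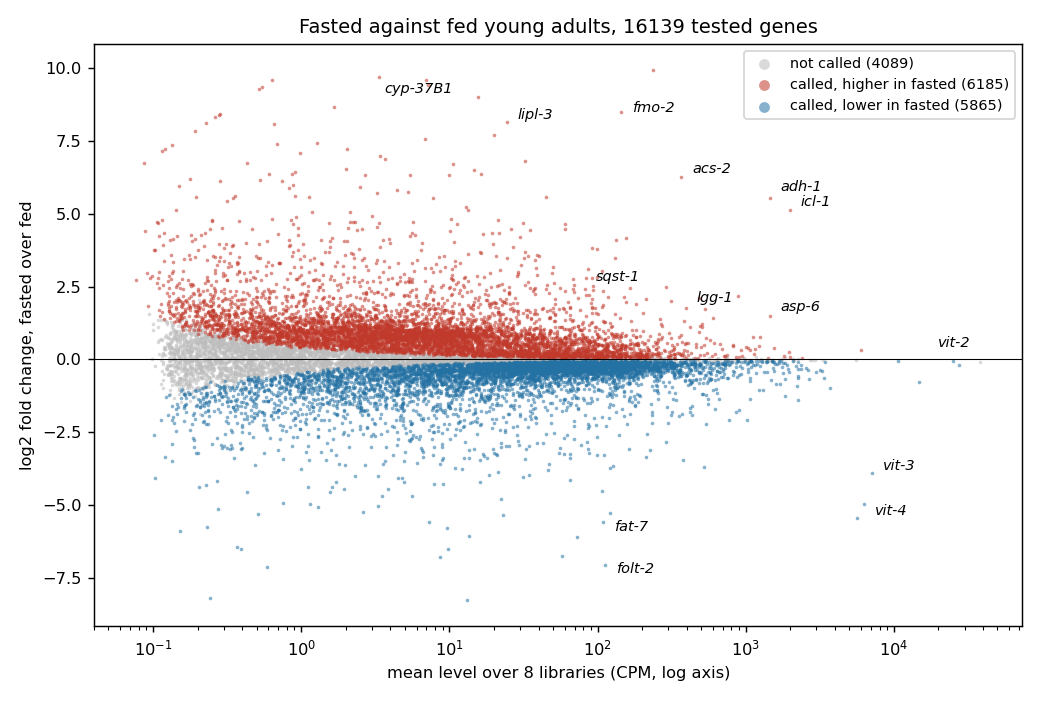
Each point is 1 of 16139 tested genes, placed by its mean level over the 8 libraries (CPM, log axis) and by its log2 fold change of fasted over fed. Red points (6185) were called higher and blue points (5865) lower in fasted animals, grey points (4089) were not called; acs-2, adh-1 and icl-1 stand out at high levels above the axis, and folt-2, fat-7, vit-3 and vit-4 below it.

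Genes of fat release, fatty acid activation and carbon routing were among the 15 largest rises of named genes with at least 10 CPM, a group led by cyp-37B1 and fmo-2. The acyl-CoA synthetase gene acs-2, which activates fatty acids for oxidation, had 744, 705, 730.1 and 714 CPM in the fasted libraries, against 8.04, 8.90, 10.3 and 10.1 CPM in the fed libraries. Its log2 fold change was 6.27 ± 0.05 (adjusted p = 6.41e-20), and the lowest fasted library was far above the highest fed one. The isocitrate lyase and malate synthase gene icl-1, the 2 enzymes of the glyoxylate cycle in 1 protein, had 3915, 3868, 3847 and 3858 CPM in the fasted libraries, against 106, 112, 108 and 116 CPM in the fed libraries. The alcohol dehydrogenase gene adh-1 had 2870.3, 2862, 2868 and 2824 CPM in the fasted libraries, against 60.3, 60.4, 60.9 and 62.1 CPM in the fed libraries, with log2 fold changes of 5.14 ± 0.03 for icl-1 and 5.55 ± 0.02 for adh-1. In both genes all 4 fasted libraries lay above all 4 fed libraries, and adh-1 overlaps a gene on the other strand, with which its reads could be shared. The flavin monooxygenase gene fmo-2, a known target of NHR-49 and HLH-30, had 289, 293, 289 and 286 CPM in the fasted libraries, against 0.851, 0.767, 0.520 and 1.13 CPM in the fed libraries (log2 fold change 8.49 ± 0.07, adjusted p = 5.99e-20).

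Several further genes were near 0 in fed animals. The carnitine palmitoyltransferase gene cpt-3, whose product moves long-chain fatty acids into mitochondria, had 20.1, 22.3, 20.7 and 20.5 CPM in the fasted libraries, against 0.178, 0.309, 0.0924 and 0.211 CPM in the fed libraries. The lysosomal lipase gene lipl-3 had 48.0, 48.1, 49.4 and 48.4 CPM in the fasted libraries, against 0.274, 0.124, 0.220 and 0.0563 CPM in the fed libraries. Fed levels of both genes stayed under 1 CPM in each library, and their log2 fold changes were 6.72 ± 0.14 and 8.14 ± 0.11. The cytochrome P450 gene cyp-37B1 stood at 31.03 ± 1.15 CPM in fasted and 0.0575 ± 0.0364 CPM in fed animals, and cyp-32B1 of the same family at 29.1 ± 0.828 CPM in fasted and 0.314 ± 0.145 CPM in fed animals. The metallothionein gene mtl-1 stood at 32.5 ± 1.38 CPM in fasted and 0.390 ± 0.0999 CPM in fed animals, and the acyltransferase family gene oac-14 at 63.7 ± 1.36 CPM in fasted and 0.567 ± 0.188 CPM in fed animals. The nicotinamide nucleotide transhydrogenase gene nnt-1 had a log2 fold change of 5.12 ± 0.10, the fatty acid and retinol binding gene far-7 of 4.78 ± 0.08, the trehalase gene tre-5 of 4.64 ± 0.12 and the patched-related gene ptr-22 of 5.76 ± 0.14. Reads of cyp-37B1 and nnt-1 could be shared with overlapping genes on the other strand.

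Among named genes with at least 10 CPM, the largest fall was that of folt-2. The folate transporter family gene folt-2 had 1.97, 1.91, 1.65 and 1.13 CPM in the fasted libraries, against 222, 223, 225 and 218 CPM in the fed libraries. The log2 fold change of folt-2 was -7.08 ± 0.07 (adjusted p = 2.55e-19), and its paralog folt-1, the known folate carrier, fell by less, with a log2 fold change of -1.06. The stearoyl-CoA desaturase gene fat-7, which makes oleate from stearate, had 4.58, 4.62, 4.21 and 4.56 CPM in the fasted libraries, against 214, 220.2, 215 and 209.6 CPM in the fed libraries, a log2 fold change of -5.58 ± 0.03. No fasted library of folt-2 or fat-7 reached the range of the fed ones. The saposin-like gene spp-23 fell to 0.213 ± 0.150 CPM in fasted animals, against 19.5 ± 0.691 CPM in fed animals, and the infection response gene irg-8 to 2.08 ± 0.277 CPM, against 144 ± 3.17 CPM. The heme-related gene hrg-7, the acid phosphatase gene pho-13, the prolyl carboxypeptidase gene pcp-2, the carboxylesterase gene cest-10 and the body-size gene lon-1 fell with log2 fold changes of -4.53, -6.08, -4.21, -4.28 and -4.06.

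Ranked by absolute gain, further genes joined adh-1 and icl-1. Per kilobase of exon, the gain was largest for adh-1, at 2179 CPM per kb in fasted and 46.5 CPM per kb in fed animals. Behind it came icl-1 at 1237 and 35.2 CPM per kb, the aspartyl protease gene asp-6 at 1681 and 600.1, the Atg8 homolog lgg-1 at 859 and 251, and the cathepsin B-like gene cpr-1 at 724 and 169, in fasted and in fed animals. Less well described genes in this ranking were F53A9.8, acer-1, F21C10.10 and F48D6.4, at 439.5, 522, 379 and 435 CPM per kb in fasted animals, against 17.7, 159, 21.1 and 99.4 CPM per kb in fed animals. The losses were led by yolk protein and collagen genes. The yolk gene vit-3 had 181 CPM per kb in fasted and 2725 CPM per kb in fed animals, and the cuticle collagen gene col-93 had 1231 and 3262 CPM per kb. The gene dct-16 had 480.0 CPM per kb in fasted and 1811 in fed animals, and ahcy-1, which clears S-adenosylhomocysteine, had 709 and 1695.

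In the genome build WBcel235, acs-2 (WBGene00009221, chromosome V, 15567394 to 15569897, plus strand), icl-1 (WBGene00001564, chromosome V, 724332 to 728004, minus strand), fmo-2 (WBGene00001477, chromosome IV, 10682524 to 10684367, plus strand), folt-2 (WBGene00018138, chromosome V, 2872465 to 2875600, minus strand) and fat-7 (WBGene00001399, chromosome V, 7151353 to 7153146, minus strand) are protein-coding genes, and counts were taken per gene and not per exon or isoform.

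**Figure D2:**
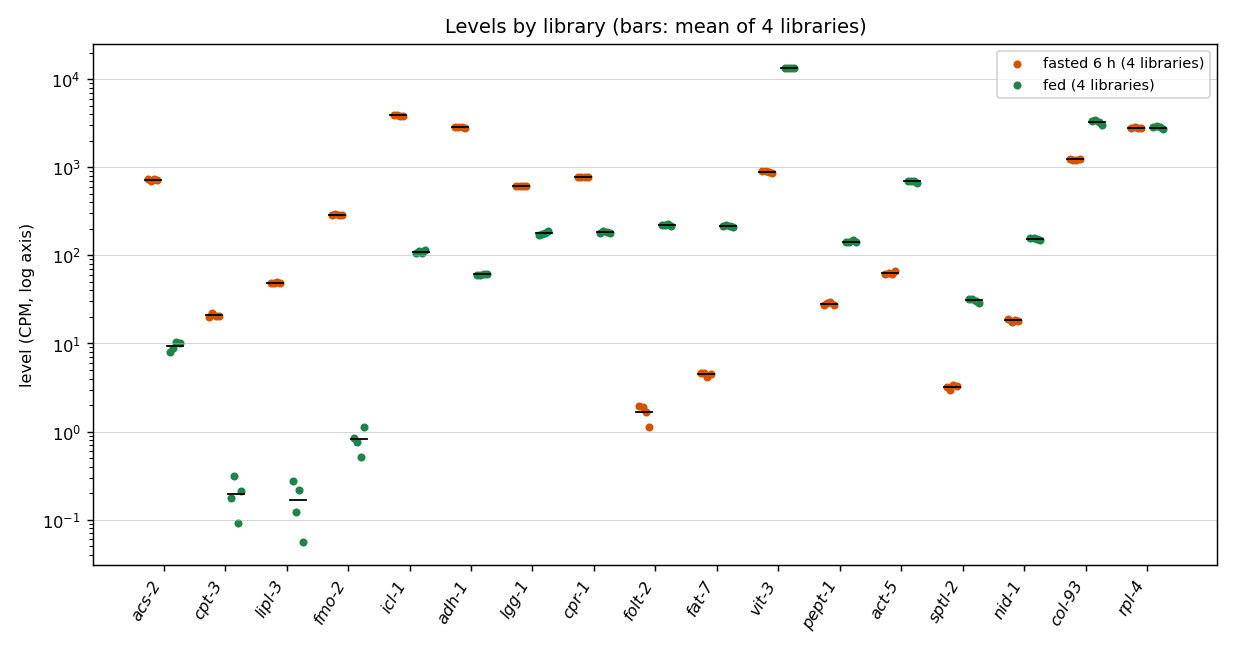
Level of 17 genes in each library (CPM, log axis), with the 4 fasted libraries in orange to the left of the 4 fed libraries in green and a bar at each mean. Replicates lie close together except under about 1 CPM, and groups are apart in each gene shown but rpl-4, a ribosomal protein gene included because it was not called.

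Lipase genes were mostly higher. Of 12 tested lipase genes 8 were called higher and 1 lower, with a median log2 fold change of 1.11, against 0.03 over all tested genes. Next to lipl-3, lipl-2 stood at 25.2 ± 1.19 CPM in fasted and 0.659 ± 0.191 CPM in fed animals and lipl-1 at 7.54 ± 0.568 CPM in fasted and 0.463 ± 0.1004 CPM in fed animals, both acid lipases of the lysosome. The cytosolic triglyceride lipase gene atgl-1 had 118, 116, 114 and 112 CPM in the fasted libraries, against 85.5, 84.8, 82.4 and 81.5 CPM in the fed libraries, a log2 fold change of 0.46 ± 0.03. The groups of atgl-1 did not overlap. The one lipase gene called lower was lipl-5, at 126.4 ± 4.39 CPM in fasted and 169.7 ± 4.22 CPM in fed animals. Summed over the list, levels were 419.8 to 434 CPM in fasted and 339 to 352 CPM in fed libraries. This relative difference was smaller than those of lipl-1, lipl-2 and lipl-3.

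Genes of mitochondrial beta-oxidation moved in both directions. Of 23 tested genes, 13 were called higher and 9 lower. The largest rises were in activation and carnitine transfer genes: beside acs-2 and cpt-3, cpt-4 rose with a log2 fold change of 2.69 ± 0.13 and cpt-1 with 1.32 ± 0.02. The acyl-CoA dehydrogenase genes acdh-7 and acdh-10, of the first step of the cycle, rose by 1.27 and 1.24 on the log2 scale. The enoyl-CoA hydratase genes ech-7 and ech-6 fell, ech-7 to 5.72 ± 0.332 CPM in fasted animals, against 44.8 ± 2.36 CPM in fed animals, and ech-6 to 108 ± 4.06 CPM, against 492 ± 7.74 CPM. The hydroxyacyl-CoA dehydrogenase gene hacd-1 (-1.50 ± 0.03), the thiolase gene kat-1 (-1.04 ± 0.02), cpt-6 (-0.88 ± 0.06) and acaa-2 (-0.52 ± 0.02) fell as well, as did the dehydrogenase gene acdh-13 (-0.56 ± 0.03).

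The peroxisomal pathway, which shortens very long and branched chains and makes ascaroside pheromones, also held genes that rose and genes that fell. Of 22 tested genes, 14 were called higher, 10 of them at least 2-fold, and 7 lower, with a median log2 fold change of 0.89. The acyl-CoA synthetase gene acs-7 stood at 50.1 ± 1.70 CPM in fasted and 6.80 ± 0.275 CPM in fed animals, and the acyl-CoA oxidase gene acox-3 at 87.5 ± 2.11 CPM in fasted and 14.1 ± 0.912 CPM in fed animals. The peroxisomal catalase gene ctl-2 stood at 142 ± 2.28 CPM in fasted and 42.2 ± 0.961 CPM in fed animals, and the peroxisomal Lon protease gene lonp-2 at 45.02 ± 1.70 CPM in fasted and 11.8 ± 0.332 CPM in fed animals. All 4 rose, by 2.88, 2.63, 1.76 and 1.93 on the log2 scale. Core genes of ascaroside shortening rose with them: maoc-1, acox-1.1, daf-22 and dhs-28 had log2 fold changes of 1.55, 1.27, 1.14 and 0.92. Other acyl-CoA oxidases went the other way, acox-1.4 with -3.32 ± 0.05, acox-1.3 with -2.40 ± 0.07 and acox-1.2 with -1.21 ± 0.04, as did the ABC transporter genes pmp-5 (-3.30 ± 0.04) and pmp-1 (-1.79 ± 0.05).

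Peroxisome assembly genes moved mostly upward. Of 11 tested peroxin genes 9 were called higher and 1, prx-19, lower. The gene prx-11, of a family that acts in peroxisome division, had 38.5, 37.4, 39.8 and 40.3 CPM in the fasted libraries, against 6.63, 5.87, 6.78 and 6.56 CPM in the fed libraries. The matrix protein import receptor gene prx-5 had 22.8, 20.9, 22.6 and 22.6 CPM in the fasted libraries, against 9.002, 10.2, 10.2 and 10.97 CPM in the fed libraries. Neither gene's groups overlapped, with log2 fold changes of 2.59 ± 0.05 and 1.14 ± 0.06. The genes prx-6, an AAA ATPase that recycles the receptor, and prx-2, a ubiquitin ligase of the import machinery, rose by 1.31 and 1.23, and prx-19 fell by 0.27, a call lost with library totals. The gene nhr-49 itself changed less than prx-11, prx-5, prx-6 and prx-2, at 127 ± 3.38 CPM in fasted and 96.4 ± 2.11 CPM in fed animals.

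**Figure D3:**
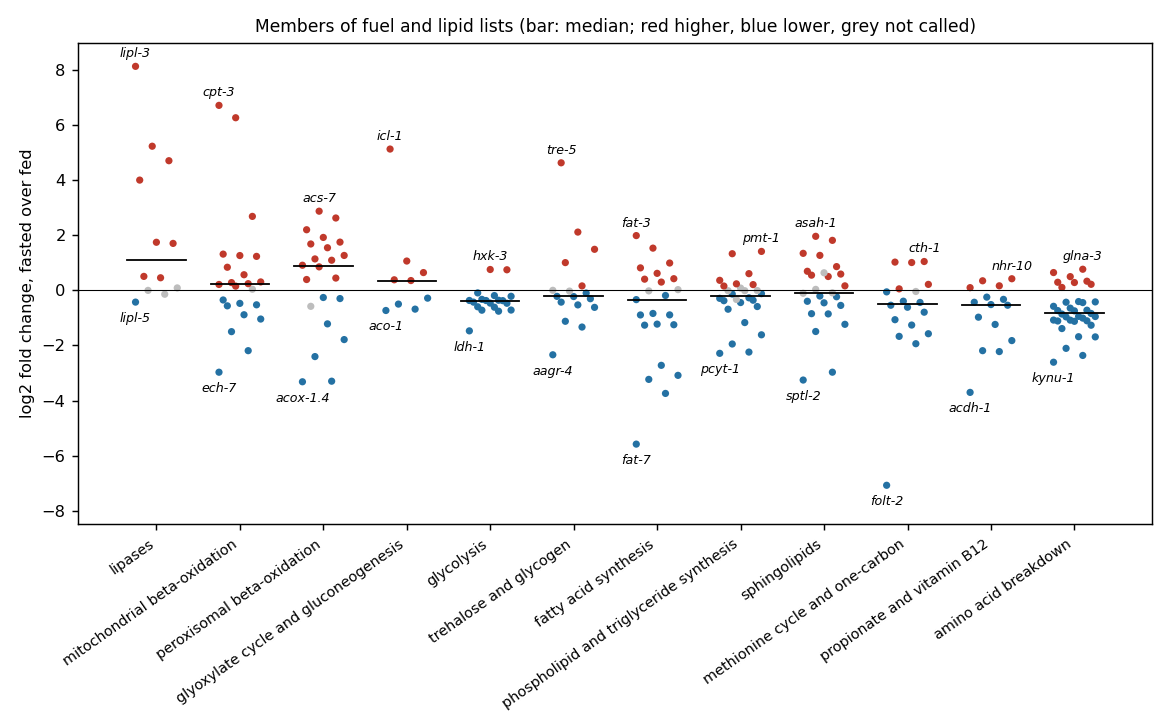
Log2 fold change of fasted over fed for each tested member of 12 fuel and lipid lists, with a black bar at each list's median and names on the highest and lowest member. Red members were called higher, blue lower and grey not called; most lists hold members far from their median on both sides, from lipl-3 at 8.14 to folt-2 at -7.08.

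Genes of sugar breakdown were mostly lower. Of 19 tested glycolysis genes 17 were called lower, with a median of -0.37. Lactate dehydrogenase ldh-1 fell most, with 34.3, 33.1, 35.01 and 32.2 CPM in the fasted libraries, against 91.8, 101, 91.5 and 88.2 CPM in the fed libraries, a log2 fold change of -1.47 ± 0.04. The glyceraldehyde-3-phosphate dehydrogenase gene gpd-2 fell by 0.75, and the exceptions were the hexokinase gene hxk-3 (0.76) and the phosphofructokinase gene pfk-1.2 (0.75), which rose. Among 9 glyoxylate and gluconeogenesis genes 5 rose and 4 fell. Levels summed over that list were 7919 to 8005 CPM in fasted and 3611 to 3769 CPM in fed libraries and icl-1 alone stood at 3872 ± 29.8 CPM in fasted and 110.1 ± 4.46 CPM in fed animals. The phosphoenolpyruvate carboxykinase genes split, with pck-3 at 1.07 ± 0.04, pck-2 at 0.36 ± 0.02 and pck-1 at -0.50 ± 0.03. The fructose-bisphosphatase gene fbp-1 fell, to 99.3 ± 1.29 CPM in fasted animals, against 159 ± 3.07 CPM in fed animals.

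Genes of trehalose and glycogen moved in both directions. Trehalose is the main blood sugar of insects and a stress sugar of nematodes. The trehalose-6-phosphate synthase gene tps-1 had 119.8, 122, 117 and 120.5 CPM in the fasted libraries, against 26.9, 26.5, 28.2 and 28.5 CPM in the fed libraries. Among trehalases, tre-5 stood at 21.7 ± 0.707 CPM in fasted and 0.863 ± 0.260 CPM in fed animals and tre-3 rose by 1.01, while tre-2 and tre-4 fell, by 1.33 and 1.12 on the log2 scale. The lysosomal alpha-glucosidase homolog aagr-1 rose by 1.49 and its paralog aagr-4 fell, with a log2 fold change of -2.34. Glycogen synthase gsy-1 had a log2 fold change of -0.10 ± 0.02 and glycogen phosphorylase pygl-1 of -0.61 ± 0.03; the call of gsy-1 was lost with upper-quartile scaling and it was called higher, at 0.089, with library totals. In the list as a whole 5 of 17 genes were called higher and 10 lower, a majority that turned to 8 higher and 7 lower with library totals. The citric acid cycle list held 7 genes called higher and 18 lower of 26, and with library totals 10 higher and 11 lower, its largest fall being the succinyl-CoA ligase gene suca-1, by 0.88, while citrate synthase cts-1 rose by 0.39.

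Fatty acid synthesis genes moved in both directions. Of 23 tested genes, 13 were called lower and 8 higher. The elongase genes elo-5 and elo-6, which extend the branched-chain fatty acids of nematodes, and elo-2, which extends palmitate, fell with log2 fold changes of -3.74 ± 0.03, -3.08 ± 0.05 and -3.23 ± 0.04. The elongase genes elo-8, elo-7 and elo-4 rose, by 1.00, 0.82 and 0.43. For elo-2 the libraries read 17.4, 15.9, 17.99 and 16.4 CPM in the fasted libraries, against 159, 163, 161 and 154 CPM in the fed libraries. Fatty acid synthase fasn-1 fell by 0.89 and ATP citrate lyase acly-1 by 1.22, and acetyl-CoA carboxylase pod-2 was not called (0.03; called higher with upper-quartile scaling, library totals and a filter at 1 CPM). The 3 delta-9 desaturases differed: fat-7 fell, fat-6, which shares its substrate, had 418, 415, 425 and 428 CPM in the fasted libraries, against 339, 349, 348 and 329.6 CPM in the fed libraries and rose by 0.30, and the palmitate desaturase gene fat-5 had 95.7, 95.2, 99.2 and 98.5 CPM in the fasted libraries, against 36.2, 33.5, 34.1 and 30.1 CPM in the fed libraries and rose by 1.54. The delta-6 desaturase gene fat-3, of polyunsaturated fatty acid synthesis, rose by 1.99, with 504 ± 8.22 CPM in fasted and 127 ± 3.09 CPM in fed animals.

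Several genes of phosphatidylcholine synthesis and of its methyl donor supply fell. The phosphoethanolamine methyltransferase genes moved apart, since pmt-1, of the first methylation, had 862, 858, 879.6 and 877 CPM in the fasted libraries, against 322, 329.7, 322 and 328 CPM in the fed libraries, while pmt-2, of the later methylations, had 192, 192, 189 and 185 CPM in the fasted libraries, against 896, 904, 893 and 883 CPM in the fed libraries. Their log2 fold changes were 1.42 ± 0.02 and -2.24 ± 0.02, and neither gene's groups overlapped. The gene pcyt-1, of the rate-limiting CDP-choline step, fell to 9.73 ± 1.05 CPM in fasted animals, against 47.6 ± 1.78 CPM in fed animals, and the phosphotransferase gene cept-1 to 12.4 ± 0.366 CPM, against 47.7 ± 2.28 CPM. The S-adenosylmethionine synthetase gene sams-1 had 144, 152, 147 and 146 CPM in the fasted libraries, against 557, 558, 568 and 569 CPM in the fed libraries. It fell by 1.94 and ahcy-1 by 1.26 on the log2 scale. In the methionine and one-carbon list 12 of 18 genes were called lower and 5 higher, among them the cystathionine gamma-lyase gene cth-1 and the cystathionine beta-synthase gene cbs-2, with 1.05 and 1.01. The phospholipid and triglyceride list, with 14 of 26 called lower and 7 higher, turned to 10 lower and 11 higher with library totals.

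Sphingolipid genes moved in both directions, also within synthesis and within breakdown. The serine palmitoyltransferase genes sptl-2 and sptl-3, of the first step of synthesis, fell with log2 fold changes of -3.25 ± 0.06 and -1.49 ± 0.03; sptl-2 had 3.24, 2.97, 3.38 and 3.25 CPM in the fasted libraries, against 31.8, 31.9, 30.2 and 29.1 CPM in the fed libraries. The sphingomyelin synthase gene sms-1 rose by 0.17. The acid ceramidase gene asah-1 and the sphingosine-1-phosphate lyase gene spl-2, of breakdown, rose by 1.97 and 1.82, with asah-1 at 101 ± 1.87 CPM in fasted and 25.9 ± 0.762 CPM in fed animals. The other lyase gene, spl-1, fell by 1.23. Among glucocerebrosidase homologs gba-1 rose by 1.35 and gba-4 fell with -2.97. Over the list 10 genes were called higher and 11 lower of 25, a near balance that became 11 higher and 8 lower with library totals. With TMM scaling the shares, 40.0% and 44.0%, were near those over all tested genes, 38.3% and 36.3%.

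Genes that carry lipids were as mixed, with 10 called higher and 10 lower of 21. The fatty acid and retinol binding gene far-7 stood at 40.9 ± 2.13 CPM in fasted and 1.48 ± 0.241 CPM in fed animals and lbp-7 at 30.2 ± 1.09 CPM in fasted and 8.08 ± 0.554 CPM in fed animals. The lysosomal lipid chaperone gene lbp-8 fell to 2 counts over the 4 fasted libraries, against 237 over the 4 fed libraries, which is 113-fold lower relative to the scaled library totals (exact 95% counting interval 30.8 to 935-fold). The lipid droplet dehydrogenase gene dhs-3 fell by 1.56 and the lipoprotein assembly gene dsc-4 by 1.13 on the log2 scale.

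Of 15 genes of propionate and vitamin B12 metabolism 4 were called higher and 11 lower. The first gene of the propionate shunt, the vitamin B12-independent route of propionate breakdown, is acdh-1. The gene acdh-1, a known reporter of diet, had 74.8, 74.1, 75.7 and 74.0 CPM in the fasted libraries, against 987, 978, 969 and 956 CPM in the fed libraries, a log2 fold change of -3.70 ± 0.02. The next steps ech-6, hach-1 and hphd-1 fell by 2.19, 1.24 and 1.82. The receptor genes nhr-114 and nhr-68, of the known vitamin B12 circuits, fell by 2.22 and 0.97, while nhr-10, which acts with nhr-68 on the shunt, rose by 0.42. Of the canonical B12-dependent route, mmcm-1 rose and pcca-1 fell, with 0.17 ± 0.02 and -0.43 ± 0.02.

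Genes of amino acid breakdown were mostly lower. Of 35 tested genes 27 were called lower and 8 higher, with a median of -0.84. The kynureninase gene kynu-1, of tryptophan breakdown, had 16.4, 16.8, 20.2 and 16.98 CPM in the fasted libraries, against 112, 109.7, 106 and 102 CPM in the fed libraries. Its neighbours in that route, tdo-2 and nkat-1, and the tyrosine breakdown gene fah-1 had log2 fold changes of -1.69, -2.36 and -2.10. Of the 8 members that rose, 5 handle glutamine and aspartate: glutaminases glna-3, glna-2 and glna-1 rose by 0.77, 0.50 and 0.29, and the aspartate aminotransferases got-2.2 and got-1.2 by 0.65 and 0.30. The other 3 were prdh-1 of proline, argn-1 of arginine and uroc-1 of histidine breakdown, with 0.34, 0.22 and 0.11.

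Autophagy genes rose in their majority, and genes of the lysosomal proton pump fell. Of 28 tested autophagy genes 19 were called higher and 2, lgg-3 and epg-3, lower, of which lgg-3 lost its call with upper-quartile scaling and with library totals. The cargo receptor gene sqst-1, homolog of p62, had 141, 137, 139.9 and 139 CPM in the fasted libraries, against 25.2, 26.0, 24.2 and 28.2 CPM in the fed libraries. The Atg8 homolog lgg-1, which coats the forming autophagosome, had 606, 605, 609.9 and 611 CPM in the fasted libraries, against 172, 175, 178 and 187 CPM in the fed libraries. The initiating kinase unc-51 and its partner epg-9 rose by 1.05 and 1.68, and the lipid transfer gene atg-2 by 1.75. In sqst-1 and lgg-1 all fasted libraries lay above all fed ones, and the list summed to 2226 to 2248 CPM in fasted and 1214 to 1236 CPM in fed libraries. Of 21 vacuolar ATPase genes, which acidify lysosomes, 20 were called lower, with a median of -0.93, and they summed to 2879.7 to 2909 CPM in fasted and 5257 to 5348 CPM in fed libraries. The subunit B gene vha-12 fell by 1.79, with 139, 141, 146 and 141 CPM in the fasted libraries, against 487, 499, 489.8 and 493 CPM in the fed libraries. The one member that rose was vha-6, the subunit of the intestinal apical membrane, by 0.23.

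Proteases of the gut and lysosome moved in both directions. Of 28 tested genes 9 rose and 19 fell. The cathepsin B-like gene cpr-1 had 779, 782, 779.8 and 779.8 CPM in the fasted libraries, against 177, 187, 183 and 180.0 CPM in the fed libraries and the aspartyl protease gene asp-6 stood at 2143 ± 17.7 CPM in fasted and 765 ± 15.6 CPM in fed animals. Against them, cpr-8 and cpr-9 fell by 1.75 and 1.92, asp-4, of the cathepsin D type, fell by 1.09, and pcp-2 fell to 1.66 ± 0.194 CPM in fasted animals, against 30.4 ± 1.49 CPM in fed animals.

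Nutrient transporter genes moved in both directions, and several genes of the gut surface fell. The peptide transporter gene pept-1, which takes up dietary peptides with protons, had 27.2, 28.4, 29.7 and 27.2 CPM in the fasted libraries, against 142, 142, 149 and 141 CPM in the fed libraries. The microvillus actin gene act-5 had 62.02, 62.6, 61.02 and 65.7 CPM in the fasted libraries, against 689.7, 702, 705 and 659 CPM in the fed libraries, and the acid phosphatase gene pho-1 of the gut lumen fell to 5.50 ± 0.610 CPM in fasted animals, against 58.8 ± 0.964 CPM in fed animals. No library of one group entered the range of the other in pept-1 or act-5, with log2 fold changes of -2.35 ± 0.03 and -3.45 ± 0.03. The proton exchanger gene nhx-2, which works with pept-1, fell by 1.37, and the other peptide transporter gene pept-2 rose by 0.43. Other transporters rose, among them the amino acid exchanger gene aat-8 (3.05), the sugar transporter family gene swt-1 (2.82) and slc-36.5 (2.47), while aat-4 and swt-3 fell, with -2.51 and -3.39. The sugar transporter family gene swt-2 had 170 counts over the 4 fasted libraries and 0 over the 4 fed ones, at least 59.7-fold higher against a floor of 3 counts over the fed group. In the transporter list 10 genes were called higher and 17 lower of 35, which became 13 and 12 with library totals.

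Of 27 genes of heme, iron and metal handling 7 were called higher and 19 lower, with a median of -0.51. Worms take all of their heme from food. The heme importer genes hrg-4 and hrg-1 fell, hrg-4 to 0.515 ± 0.231 CPM in fasted animals, against 8.48 ± 0.957 CPM in fed animals, and hrg-1 by 1.43 on the log2 scale. The ferritin gene ftn-1, which stores iron, had 10.04, 9.33, 9.28 and 10.5 CPM in the fasted libraries, against 1.002, 1.37, 1.62 and 1.82 CPM in the fed libraries. The iron importer gene smf-3 rose by 2.32, the zinc transporter gene cdf-2 by 2.42, and of the metallothioneins mtl-1 rose by 6.38 and mtl-2, abundant in both groups, by 0.47. The other 2 rises were hrg-5 and hrg-9, with 2.98 and 1.24, and the second ferritin gene ftn-2 fell, with -0.48.

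The machinery that feeds proteins into the secretory pathway was lower in nearly all of its genes. Of 31 tested translocon, glycosylation and coat genes 30 were called lower and the other, sec-16A.1, was not called (its value turned positive with upper-quartile scaling and library totals), with a median of -0.41. The 4 translocon-associated protein genes trap-1, trap-2, trap-3 and trap-4 fell by 1.90, 2.28, 1.59 and 1.45 on the log2 scale, and trap-2 had 38.1, 37.97, 40.5 and 40.0 CPM in the fasted libraries, against 183, 188, 195 and 195 CPM in the fed libraries. The cargo receptor gene sft-4, homolog of SURF4, fell by 1.33. Of 31 folding genes of the endoplasmic reticulum 26 were lower and 4 higher (8 higher and 19 lower with library totals). The prolyl isomerase genes fkb-5, fkb-3 and fkb-4 fell with log2 fold changes of -3.29, -2.32 and -1.83, and the collagen prolyl hydroxylase genes phy-2 and dpy-18, with their partner pdi-2, with -2.07, -1.72 and -1.54. The BiP chaperone genes hsp-3 and hsp-4, markers of unfolded protein stress, fell by 1.20 and 0.64, and the stress sensor gene pek-1 rose by 0.96.

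Extracellular matrix genes, whose products pass through that machinery, were mostly lower too. Of 118 tested cuticle collagen genes of the col family 69 were called lower and 13 higher, with a median of -0.47, and their levels summed to 34701 to 34877 CPM in fasted and 53979 to 59595 CPM in fed libraries. The collagen gene col-93 had 1235, 1219, 1224 and 1250.2 CPM in the fasted libraries, against 3311, 3473, 3259 and 3019 CPM in the fed libraries, and col-149, col-101 and col-167 fell by 2.93, 2.10 and 1.90. Of 23 basement membrane genes 16 were lower and 5 higher. Nidogen nid-1 had 19.02, 17.7, 18.4 and 18.2 CPM in the fasted libraries, against 158, 159, 153 and 150.1 CPM in the fed libraries, and peroxidasin pxn-2, laminin beta lam-1 and perlecan unc-52 fell by 2.21, 1.93 and 1.69. The type IV collagen genes emb-9 and let-2, which form the sheet itself, rose instead, by 0.19 and 0.11. In the wider list of cuticle shape, molting and hedgehog-related genes 54 of 102 were lower and 23 higher, with ptr-22 and ptr-3 rising by 5.76 and 3.55 and grd-13 falling with -3.58.

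**Figure D4:**
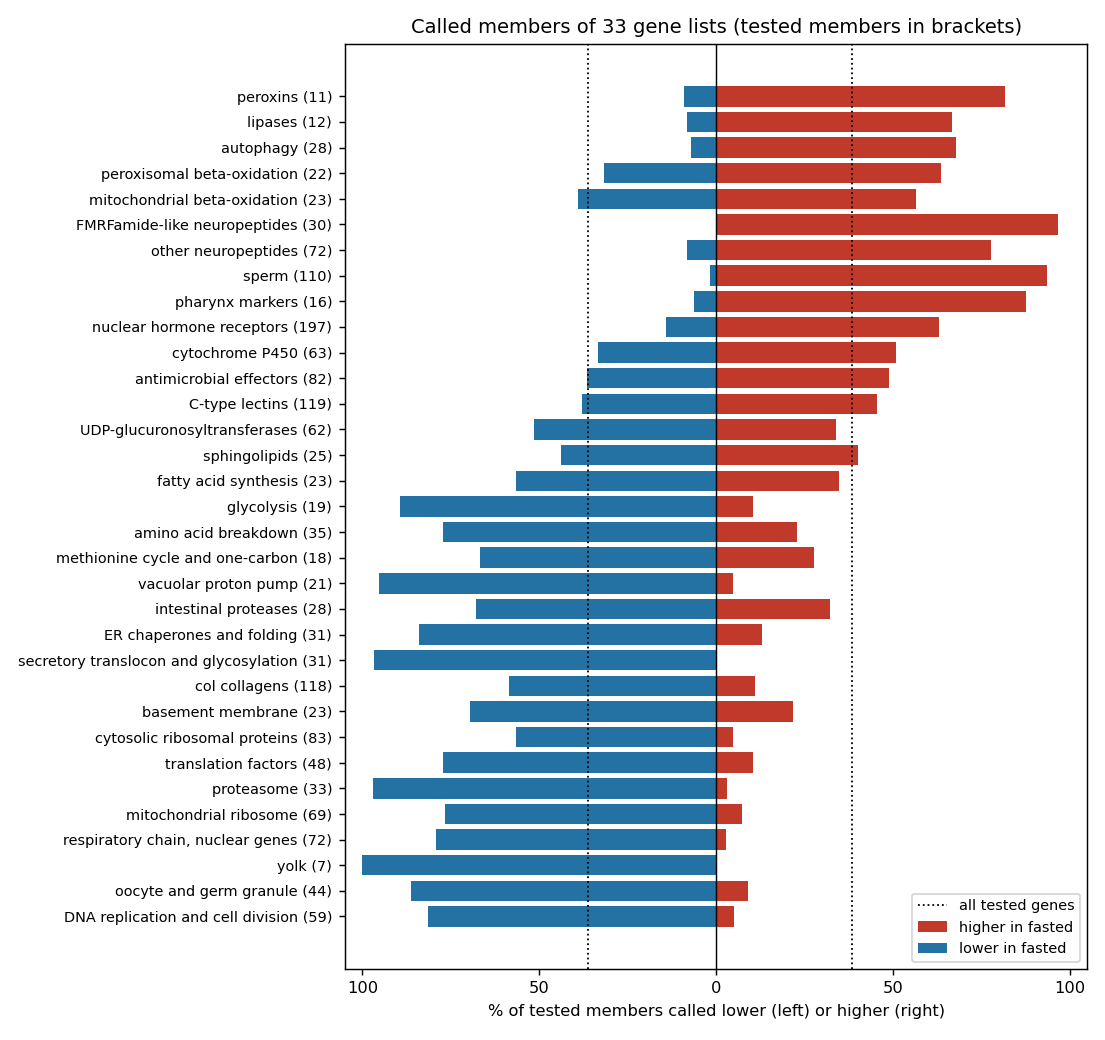
Share of the tested members of 33 gene lists that were called lower (blue, left) or higher (red, right) in fasted animals, with the number of tested members in brackets and dotted lines at the shares over all tested genes (36.3% lower and 38.3% higher). Neuropeptide, sperm, peroxin and autophagy lists extend to the right, and translocon, proteasome, proton pump and yolk lists to the left.

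Proteasome and translation factor genes mostly fell by small amounts. Of 33 proteasome genes 32 were called lower, between -0.12 and -0.58, and 1, rpn-6.2, higher. The lid gene rpn-12 stood at 78.2 ± 2.78 CPM in fasted and 112 ± 3.08 CPM in fed animals. Of 48 translation factor genes 37 were lower and 5 higher, which became 12 higher and 18 lower with library totals; the cap-binding gene ife-2 fell most, by 1.18, and the elongation factor gene eef-1A.2 fell by 0.71. Cytosolic ribosomal protein genes stayed close to the bulk of genes, at a median of -0.06, with 47 of 83 called lower and 4 higher, a direction that turned with library totals to 70 higher and 1 lower. Among the 50 most abundant genes, eef-2, ant-1.1, rpl-2, rpl-4 and rla-0 were not called with TMM scaling, but all 5 turned positive and were called higher with upper-quartile scaling and with library totals. The gene rpl-4 had 2810.2, 2839.5, 2808 and 2766 CPM in the fasted libraries, against 2846, 2912, 2830.3 and 2704 CPM in the fed libraries, and its groups overlapped. The nucleolar gene fib-1 fell by 0.20, a call lost with library totals, and its list, ribosome biogenesis, held 13 genes called higher and 17 lower of 37, a majority that turned with upper-quartile and library-total scaling.

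Mitochondrial genes of both genomes were mostly lower with TMM scaling, and the split depended on scaling. Of 72 nuclear genes of the respiratory chain 57 were called lower and 2 higher, and of 69 mitochondrial ribosome genes 53 were lower and 5 higher. With upper-quartile scaling the lists held 10 higher and 48 lower and 11 higher and 45 lower, and with library totals 19 higher and 27 lower and 17 higher and 27 lower. Of the 12 tested genes of the mitochondrial genome 11 were called lower and 1 was not called, with a median of -0.51, and that genome took 0.362 to 0.425% of counts in fasted and 0.406 to 0.690% in fed libraries, ranges that overlapped. Among quality control genes the mitophagy receptor gene dct-1 rose, with 32.4, 33.04, 31.2 and 33.1 CPM in the fasted libraries, against 8.55, 7.80, 8.90 and 8.80 CPM in the fed libraries. The mitochondrial chaperones parted, hsp-60 falling by 1.20 and hsp-6, the usual marker of mitochondrial stress, not called at -0.01 ± 0.02, a value that turned positive with upper-quartile scaling and library totals.

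Heat shock genes were mostly lower. Of 32 tested genes 25 were called lower and 3 higher, with 7 higher and 17 lower under library totals. The inducible gene hsp-70 stood at 0.619 ± 0.241 CPM in fasted and 1.36 ± 0.235 CPM in fed animals and hsp-17 at 2.66 ± 0.180 CPM in fasted and 9.94 ± 0.493 CPM in fed animals, and the small heat shock genes hsp-16.2 and hsp-16.41, near-identical to neighbours, fell by 1.45 and 1.43. The one large rise was hsp-12.6, a known DAF-16 target, with 2.32, 1.30, 1.34 and 1.82 CPM in the fasted libraries, against 0.576, 0.458, 0.300 and 0.465 CPM in the fed libraries. Redox genes were split, with 13 higher and 11 lower of 29 (15 higher and 7 lower with library totals). Their shares with TMM scaling, 44.8% and 37.9%, were near those over all tested genes, 38.3% and 36.3%. The catalase genes ctl-1, ctl-2 and ctl-3, which lie side by side and are similar in sequence, rose by 1.73, 1.76 and 1.56. The methionine sulfoxide reductase gene msra-1 fell by 2.58 and the SKN-1 reporter gene gst-4 by 1.58, and the DAF-16 reporter gene sod-3 was not called, at -0.12 ± 0.14, and turned positive with library totals.

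Detoxification families moved in both directions at large size. Of 63 cytochrome P450 genes 32 rose, 18 of them at least 2-fold, and 21 fell, 9 at least 2-fold. Beside cyp-37B1 and cyp-32B1, cyp-33B1 and cyp-34A10 rose by 5.43 ± 0.61 and 4.91 ± 0.13. The level of cyp-33B1 was low in both groups, at 0.620 ± 0.128 CPM in fasted and 0.0116 ± 0.0231 CPM in fed animals. The xenobiotic response gene cyp-35A5 fell to 0.0713 ± 0.0487 CPM in fasted animals, against 2.52 ± 0.283 CPM in fed animals. The genes cyp-35D1 and cyp-35C1, of the same numbered family, fell with -4.92 and -2.63, although cyp-35B1, a known DAF-16 target, rose by 2.15. Levels of cyp-35D1 and cyp-35B1 were low, at 0.0437 and 0.872 CPM in fasted animals, against 1.47 and 0.198 CPM in fed animals. Of 62 UDP-glucuronosyltransferase genes 32 fell and 21 rose, ugt-63 and ugt-22 among the falls, with log2 fold changes of -4.81 and -3.79. All but fmo-3 of the 5 flavin monooxygenase genes rose, fmo-1 by 3.15, fmo-5 by 2.40 and fmo-4 by 0.34, and their levels summed to 467 to 473 CPM in fasted and 61.8 to 69.0 CPM in fed libraries. Of 43 glutathione S-transferase genes 20 fell and 13 rose; gst-10 fell by 3.20.

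Defence genes moved in both directions. Among 82 tested effectors 40 rose and 30 fell, 27 and 16 of them at least 2-fold. The thaumatin gene thn-1 rose to 20.4 ± 1.31 CPM in fasted animals, against 1.23 ± 0.183 CPM in fed animals. The DAF-16-regulated gene dod-19 fell to 1.11 ± 0.322 CPM, against 44.9 ± 2.19 CPM in fed animals. Lysozyme genes lys-1 and lys-2, expressed in the gut, fell, with log2 fold changes of -2.68 and -3.74, and the epidermal antimicrobial peptide genes nlp-29, nlp-28 and nlp-31 rose by 2.25, 2.56 and 1.93. Of the C-type lectin genes 54 rose, 45 fell and 20 were not called, from clec-76 with 5.81 down to clec-265 with -4.21. The shares of rises and falls, 45.4% and 37.8%, were near those over all tested genes, 38.3% and 36.3%. The summed level of the lectin family was 2548 to 2557 CPM in fasted and 2472 to 2561 CPM in fed libraries, with overlapping ranges. Of 21 tested pals genes, a family with members known to respond to intracellular pathogens, 12 rose and 4 fell. The gene pals-32 stood at 8.30 ± 0.238 CPM in fasted and 2.19 ± 0.278 CPM in fed animals.

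Regulators of nutrient sensing moved by moderate amounts. Of 36 genes of insulin, TOR and AMPK signalling 19 were called higher and 11 lower, against 22 higher and 7 lower with upper-quartile scaling and 26 higher and 4 lower with library totals. The insulin receptor gene daf-2 had 375, 387, 368 and 381 CPM in the fasted libraries, against 162, 163, 164 and 158 CPM in the fed libraries. The insulin receptor substrate gene ist-1 stood at 23.2 ± 0.456 CPM in fasted and 5.87 ± 0.339 CPM in fed animals and the kinase gene akt-2 rose by 1.07. Of the AMPK genes, the catalytic subunit aak-2 rose by 0.48 and the gamma subunit aakg-4 by 1.81, while aakg-2 fell by 0.52. Genes of the amino acid branch of TOR signalling fell slightly, raga-1 by 0.21 and ragc-1 by 0.28, calls that were lost with library totals, and sestrin sesn-1 by 0.54. The kinase gene let-363, TOR itself, had a log2 fold change of 0.22 ± 0.03.

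Among transcription factors of the nutrient response 21 of 38 rose and 11 fell (24 higher and 6 lower with library totals). The zinc finger gene pqm-1, whose product is known to oppose DAF-16, had 56.8, 54.8, 54.5 and 55.3 CPM in the fasted libraries, against 7.73, 9.60, 9.36 and 11.3 CPM in the fed libraries. The TFEB homolog hlh-30 had 159, 161, 156 and 161 CPM in the fasted libraries, against 66.2, 64.7, 67.8 and 63.5 CPM in the fed libraries. Both genes' groups were apart, with log2 fold changes of 2.55 ± 0.07 and 1.28 ± 0.03, and nhr-49 and daf-16 rose less, by 0.40 and 0.21. The intestinal GATA factor gene elt-7 rose by 1.74. The factors that fell included zip-10, klf-3 and atf-4, by 1.55, 1.22 and 1.00. Of 197 nuclear hormone receptor genes, a family much expanded in nematodes, 124 rose and 28 fell, 63 and 10 of them at least 2-fold, and nhr-21 stood at 51.7 ± 3.08 CPM in fasted and 6.42 ± 0.473 CPM in fed animals.

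Genes of secreted signals were mostly higher. Of 30 FMRFamide-like neuropeptide genes 29 were called higher and the other, flp-34, was not called, with a median of 0.59 and a range of 0.29 to 1.35. The gene flp-21, a ligand of the foraging receptor NPR-1, stood at 3.42 ± 0.484 CPM in fasted and 1.61 ± 0.128 CPM in fed animals. Of 72 other neuropeptide genes 56 rose and 6 fell, among the falls nlp-24 and nlp-40, by 1.15 and 0.75. The gene nlp-40 is made in the intestine and drives the defecation rhythm. This list also counts nlp-28, nlp-29 and nlp-31, given above as epidermal antimicrobial peptide genes, so not all of its members are neuronal signals. Of 26 insulin-like peptide genes 13 rose and 4 fell. The gene ins-20 had 301 counts over the 4 fasted libraries and 0 over the 4 fed ones, at least 106-fold higher against a floor of 3 counts over the fed group. The agonist gene daf-28 fell by 0.86, while the TGF-beta ligand gene daf-7, made in sensory neurons in response to food, rose, with 7.57 ± 1.23 CPM in fasted and 4.59 ± 0.487 CPM in fed animals.

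Markers of neurons rose in part along with the peptides: 9 of 15 neuron markers were called higher and 2, rab-3 and unc-119, lower. The markers summed to 582 to 589.6 CPM in fasted and 448 to 455 CPM in fed libraries. The peptide processing genes egl-3 and egl-21, which are counted in this marker list and its sum, rose by 0.78 and 0.63. In fasted animals egl-3 stood at 166.6 CPM and egl-21 at 107.6 CPM, against 96.7 and 69.3 CPM in fed animals. The summed rise is thus for the most part a rise of these peptide processing genes, egl-3 and egl-21. The part of a changed neuronal share of RNA in the neuropeptide counts was not tested.

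Sperm genes were mostly higher, and oocyte and yolk genes mostly lower. Of 110 tested sperm genes 103 were called higher and 2 lower, with a median of 0.53 and a sum of 6375 to 6440.3 CPM in fasted and 4387 to 4656 CPM in fed libraries. All 31 tested major sperm protein genes (msp), which are near-identical in sequence so that counts may be split among them, were called higher. The sperm ferlin gene fer-1 had 27.4, 25.6, 24.3 and 26.2 CPM in the fasted libraries, against 12.2, 12.7, 12.04 and 13.2 CPM in the fed libraries, a log2 fold change of 1.04 ± 0.05. Of 44 oocyte and germ granule genes 38 were lower and 4 higher, with a median of -0.38 and 10 higher and 31 lower under library totals; the oocyte maturation gene oma-2 and the germ granule gene meg-3 fell by 0.91 and 0.76. DNA replication and cell division genes fell by small amounts in 48 of 59 cases (14 higher and 28 lower with library totals), with cyb-3 at -0.73 ± 0.02 and rnr-2 at -0.66 ± 0.03, and the cell cycle inhibitor gene cki-1 rose by 0.87. Of 29 early embryo genes 15 were lower and 3 higher, and many of these were at low levels.

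Yolk protein genes fell unequally. All 7 tested yolk genes, the receptor rme-2 included, were called lower, and their levels summed to 61914 to 64269.9 CPM in fasted and 110311 to 112096 CPM in fed libraries. The gene vit-1 had 269, 252, 241 and 244 CPM in the fasted libraries, against 11197, 11062, 11076 and 11082 CPM in the fed libraries, and vit-4 had a log2 fold change of -4.97 ± 0.02. The gene vit-2, the most used reporter of yolk synthesis, stayed near its fed level, with 24622, 24729, 23946 and 23798 CPM in the fasted libraries, against 25711, 25296, 25452 and 25467 CPM in the fed libraries, a log2 fold change of -0.07 ± 0.01, and vit-6 fell by 0.18; the call of vit-2 was lost with upper-quartile scaling and reversed with library totals, where it was called higher (0.11, adjusted p = 0.000189), and that of vit-6 was lost with library totals. The gene vit-5 lay between, with a log2 fold change of -0.78 ± 0.02. Since vit-1 and vit-2, and vit-3, vit-4 and vit-5, are close copies, the division of reads among them is uncertain.

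Tissue markers did not move as blocks in the intestine. Of 17 intestine markers 8 were called higher and 8 lower, from act-5 and pho-1 among the falls to ftn-1, cpr-1 and ges-1 among the rises, ges-1 by 0.84. Of 16 pharynx markers 14 rose and 1 fell, with the pharyngeal myosin gene myo-2 at 471 ± 18.1 CPM in fasted and 317 ± 10.9 CPM in fed animals. Of 16 hypodermis markers 1 rose and 11 fell. Among the falls were bli-1 and dpy-7, both at low levels, with log2 fold changes of -1.42 and -1.15. In fasted animals bli-1 stood at 1.55 CPM and dpy-7 at 0.308 CPM, against 4.14 and 0.687 CPM in fed animals. Of 38 muscle genes 21 fell and 12 rose, reversed in majority with library totals: the attachment genes unc-97 and pat-2 fell by 0.93 and 1.03, while the body wall myosin genes unc-54 and myo-3 rose by 0.31 and 0.42. Summed levels of the hypodermis markers were 7367 to 7436 CPM in fasted and 10037 to 10940.5 CPM in fed libraries. This marker list itself holds genes of the col family, so it shares members with the collagen list. The part of the hypodermis in the collagen counts was not tested.

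The direction of calls differed with the level of the gene. Among genes with a mean under 1 CPM 32.5% were called higher and 13.00% lower, and among those of 100 to 1000 CPM 23.3% and 65.6%. Of the 120 genes over 1000 CPM 18 were higher and 79 lower. Rises in low genes also showed in annotated pseudogenes, of which 352 of 719 were called higher and 103 lower, against 5813 and 5743 of 15352 protein-coding genes.

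Chromosomes differed in the direction of large changes. On chromosome X 323 of 2260 tested genes were called at least 2-fold lower (14.3%) and 243 at least 2-fold higher (10.8%). On chromosome V, which carries many genes of the expanded chemoreceptor families, the order was reversed, with 672 of 3260 genes at least 2-fold higher (20.6%) and 300 at least 2-fold lower (9.20%). Of the nuclear chromosomes, I and III, rich in genes for basic cell functions, had the smallest shares of genes at least 2-fold lower, 3.54% and 4.06%. The yolk genes on X include vit-1, vit-3 and vit-4, which fell at least 2-fold, and vit-5, which fell by less than that.

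**Figure D5:**
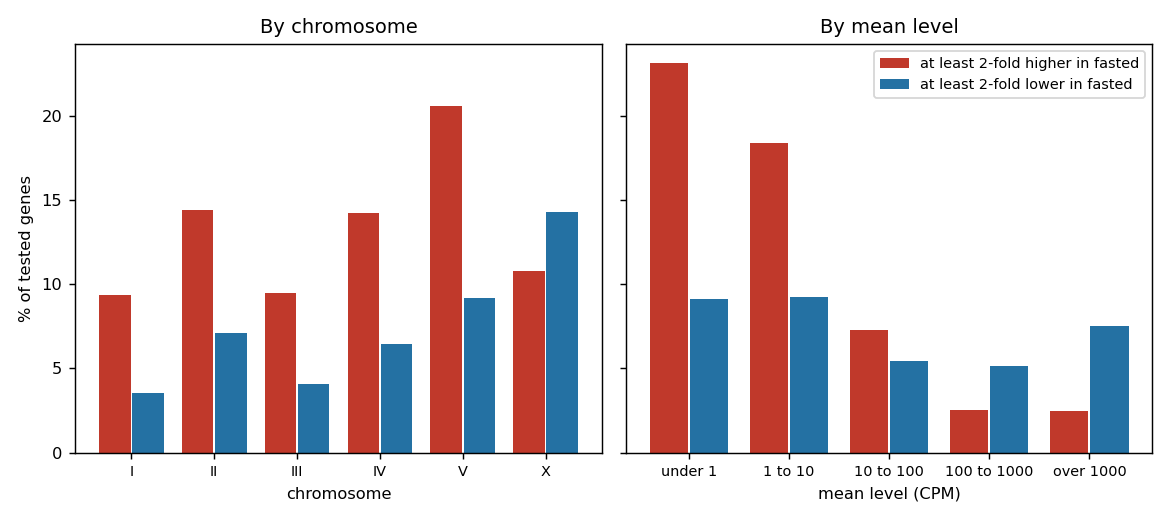
Share of tested genes called at least 2-fold higher (red) or at least 2-fold lower (blue) in fasted animals, by chromosome on the left and by mean level over the groups on the right (CPM). Of the nuclear chromosomes X alone has more falls than rises (14.3% and 10.8%), and rises outnumber falls in the 3 lower level classes but not in the 2 upper ones.

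Families defined only by their gene symbol gave a similar picture. Of 140 families with at least 10 tested genes, 67 held at least 4 genes called in each direction. Over all tested genes 38.3% were called higher and 36.3% lower. At these shares a count of this kind depends on family size, and it is not read as a trait of the families. Beside msp and flp, the families with the largest share of rises were nspc (16 of 17), spe (25 of 29), ssp (10 of 12), prx, acs (17 of 22) and nlp (50 of 66), spe and ssp being sperm families. In the acyl-CoA synthetase family acs-2 stood far above the next members, acs-7, acs-17 and acs-11, with 2.88, 2.51 and 2.46, and acs-1, of branched-chain fatty acid metabolism, fell by 2.57. The families with the largest share of falls were vha (19 of 20), prp of splicing (12 of 13), rpn of the proteasome (12 of 13), rpb of RNA polymerase II (10 of 11), nspg (9 of 10), npp of the nuclear pore (23 of 26), rbm (11 of 13) and eif (21 of 25). Of these, vha and nspg alone held members at least 2-fold lower, 9 and 6. Family counts were made with TMM scaling only, and their direction under other scalings was not tested. The medians of prp, npp and eif were small, at -0.189, -0.2 and -0.255. Library totals moved the median of all genes upward by 0.19.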

How the data were processed

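Poly-A RNA of whole nematodes was sequenced from libraries made with the Kapa mRNA HyperPrep kit, per the labels' protocols. The authors deposited 1 table of gene-level expected counts, so called here because the values are not whole and their totals differ. DESeq and the build WBcel235 appear in the submitters' processing notes, and the aligner was not given in the sources used here, nor was the counter. Of the values up to 12, 66.0 to 69.3% were even, which is why halved counts were among the alternatives. Release 115 of the WBcel235 annotation gave symbols, positions and exon lengths and covered 21714 of 21882 gene IDs.

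Counts of the 8 young adult libraries were rounded, 5743 genes were removed by filterByExpr, and libraries were scaled with TMM factors. The groups were compared with edgeR 4.0.16 (quasi-likelihood test, R 4.3.3, Benjamini-Hochberg adjustment over 16139 genes), with the SE taken from the F statistic. The procedure was tested on simulated data. A gene without counts in 1 group was set against a floor of 3 counts over the group, and such intervals and floors cover counting error only. No source says if strand was used in counting, so values of genes with a neighbour on the opposite strand (4001 of the tested genes) and of near-identical copies are uncertain. The day 8 libraries were used only where named.

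The members, the gene lists and the rules for named genes were chosen with earlier results of these data known. The rules took the 15 largest rises and falls among called genes whose libraries did not overlap and whose higher mean reached 10 CPM, the 10 largest gains and losses per kilobase among 2-fold changes, up to 4 called members of each list with at least 5 CPM, list members that went against their list, abundant genes without a call, the extremes of symbol families and a set of known fasting, yolk and stress genes. Of 302 named genes, 69 fell outside the size, list and set parts of these rules and were chosen after their values were seen. Alternatives were RLE, upper-quartile and library-total scaling, DESeq2 1.42.0, no filter, a filter at 1 CPM, all 16 libraries in 1 fit, a replicate block, halved counts, no ribosomal RNA genes, an adjusted p under 0.01, a test against a 2-fold change and leaving out each library.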

Additional observations from a re-analysis of the deposited data

Results flagged for a closer look

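In groups of 4 libraries, a library was marked where its gap to the nearest other library exceeded Dixon's 95% critical share of the range. This held in 32 of 614 groups checked (5.21%), and chance marks about 1 in 20 (5%). Fasted library 1 stood apart in acer-1 at 832 CPM (the other 3 at 811 to 813), daf-16 at 202 CPM (the other 3 at 209.5 to 211), dod-19 at 1.59 CPM (the other 3 at 0.924 to 0.986), lbp-8 at 0.0292 CPM (the other 3 at 0) and oma-2 at 193 CPM (the other 3 at 199.8 to 200.4). Fasted library 2 stood apart in cept-1 at 12.9 CPM (the other 3 at 12.2 to 12.3), fkb-5 at 1.35 CPM (the other 3 at 1.46 to 1.47), prx-19 at 56.0 CPM (the other 3 at 58.8 to 59.3) and prx-5 at 20.9 CPM (the other 3 at 22.6 to 22.8). Fasted library 3 stood apart in fat-7 at 4.21 CPM (the other 3 at 4.56 to 4.62), kynu-1 at 20.2 CPM (the other 3 at 16.4 to 16.98), myo-3 at 367 CPM (the other 3 at 375 to 376), prx-2 at 10.2 CPM (the other 3 at 8.95 to 9.15) and tre-5 at 20.7 CPM (the other 3 at 22.03 to 22.2). Fasted library 4 stood apart in acs-11 at 274 CPM (the other 3 at 285 to 286), ctl-3 at 54.9 CPM (the other 3 at 59.0 to 59.7) and nkat-1 at 0.259 CPM (the other 3 at 0.161 to 0.165). Fed library 1 stood apart in cyp-32B1 at 0.0961 CPM (the other 3 at 0.371 to 0.394), nlp-31 at 4.01 CPM (the other 3 at 4.59 to 4.67), pho-13 at 27.8 CPM (the other 3 at 26.2 to 26.3), spp-23 at 18.4 CPM (the other 3 at 19.7 to 19.9) and vit-1 at 11197 CPM (the other 3 at 11062 to 11082). Fed library 2 stood apart in myo-3 at 271 CPM (the other 3 at 281 to 283). Fed library 3 stood apart in cyp-33B1 at 0.0462 CPM (the other 3 at 0), lipl-1 at 0.612 CPM (the other 3 at 0.394 to 0.425), pept-1 at 149 CPM (the other 3 at 141 to 142) and swt-3 at 25.8 CPM (the other 3 at 24.3 to 24.4). Fed library 4 stood apart in acox-3 at 15.5 CPM (the other 3 at 13.5 to 13.8), ahcy-1 at 2502 CPM (the other 3 at 2629.6 to 2651), pck-2 at 971 CPM (the other 3 at 1025 to 1034), rme-2 at 848 CPM (the other 3 at 933 to 946) and vit-4 at 11983 CPM (the other 3 at 12349 to 12372). No fasted library marked here reached the fed range of its gene, and no fed library the fasted range.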

How the results depend on the processing

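Counts of calls depended on how libraries were scaled and on which spread was used. Scaling by library totals alone gave 8031 genes called higher and 3746 lower. A fit of all 16 libraries, which takes in the spread of the day 8 groups, gave 3790 higher and 3767 lower; of its calls 7292 were also called in the same direction with the 8 libraries, 60.5% of the calls made there. A test against a 2-fold change called 1172 genes higher and 797 lower, fewer by construction. RLE scaling, DESeq2, no filter, a filter at 1 CPM, halved counts, an adjusted p under 0.01 and removal of ribosomal RNA genes kept each count within 1.5 times. Leaving out 1 library gave 5986 to 6155 genes higher and 5711 to 5821 lower, with 2174 to 2321 at least 2-fold higher and 1195 to 1238 at least 2-fold lower. The replicate block gave 6108 higher and 5817 lower. The replicate numbers share no stated culture or day, and deviations of libraries with the same number correlated at 0.0446, 0.0573, 0.013 and 0.0128, so the numbers were not taken as pairs; fasted library 3 correlated more with fed library 4 (0.0204) than with its own number. The block changed no call of a named gene. Of 302 named genes, 29 lost their call in the 16-library fit, 99 in the test against a 2-fold change, 6 with library totals and 3 with upper-quartile scaling. With library totals 2, gsy-1 and vit-2, were called in the opposite direction. The gene rpl-2 was called lower with RLE scaling and DESeq2.

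Named genes that changed sign were close to 0 in the 8-library fit with TMM scaling. With library totals, gsy-1 stood at 0.089, lgg-3 at 0.015, sod-3 at 0.061, vit-6 at 0.0033, vit-2 at 0.11, ant-1.1 at 0.18, eef-2 at 0.17, hsp-6 at 0.18, rla-0 at 0.16, rpl-2 at 0.15, rpl-4 at 0.18 and sec-16A.1 at 0.18. With upper-quartile scaling, vit-2 stood at 0.0046, ant-1.1 at 0.068, eef-2 at 0.055, hsp-6 at 0.068, rla-0 at 0.054, rpl-2 at 0.038, rpl-4 at 0.066 and sec-16A.1 at 0.068. With the 1 CPM filter, ant-1.1 stood at 0.013, eef-2 at 0.00048, hsp-6 at 0.014, rpl-4 at 0.011 and sec-16A.1 at 0.013. Over fits without 1 library, ant-1.1 ran between -0.024 and 0.0019, hsp-6 between -0.019 and 0.00080, rpl-4 between -0.031 and 0.0042 and sec-16A.1 between -0.017 and 0.0053. Without fed library 4, eef-2, rla-0 and rpl-2 were called lower, at -0.034, -0.039 and -0.054. The cause of these changes was not tested. The promoter sequences planned for the induced genes were not used here.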

Other observations

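Some of the largest differences belonged to genes without a lettered symbol, and these were chosen after their values were seen. The protein-coding gene T22F3.11 had 461, 475, 477 and 465 CPM in the fasted libraries, against 0.261, 0.482, 0.578 and 0.591 CPM in the fed libraries, a log2 fold change of 9.92 ± 0.07 and no overlap between groups. The genes F46C5.1 and F09F7.6 stood at 39.6 ± 1.70 CPM in fasted and 0.186 ± 0.0197 CPM in fed animals and at 87.9 ± 3.14 CPM in fasted and 1.87 ± 0.310 CPM in fed animals, and both overlap a gene on the other strand. Downward, Y48E1B.8 fell to 0.0789 ± 0.0889 CPM in fasted animals, against 26.3 ± 2.57 CPM in fed animals. The gene R193.2 stood at 6.003 ± 0.498 CPM in fasted and 234.9 ± 6.47 CPM in fed animals, and F46F2.3 at 1.06 ± 0.09997 CPM in fasted and 114 ± 3.92 CPM in fed animals.

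Of 8 linker histone genes 5 were called higher and 2 lower, against 6 higher and 1 lower with library totals. The gene hil-1, of the linker histone H1 type, had 31.9, 28.5, 30.3 and 29.1 CPM in the fasted libraries, against 4.16, 4.34, 4.45 and 3.87 CPM in the fed libraries, and hil-4 stood at 272 ± 1.66 CPM in fasted and 380.2 ± 11.3 CPM in fed animals. Of 177 F-box genes, whose products choose targets for ubiquitin ligases, 62 rose and 37 fell (72 higher and 23 lower with library totals). With TMM scaling 78 F-box genes were not called. The shares of rises and of falls were both below those over all tested genes, 38.3% and 36.3%. The gene fbxa-24 stood at 66.8 ± 1.61 CPM in fasted and 3.08 ± 0.596 CPM in fed animals and fbxa-72 at 4.16 ± 0.577 CPM in fasted and 64.8 ± 2.42 CPM in fed animals. Of 56 transthyretin-related genes 33 rose and 14 fell, with 13 and 4 of them at least 2-fold. Meiosis genes moved little: 12 of 29 were called lower and 7 higher, a majority that turned with upper-quartile scaling and library totals, and the synaptonemal complex gene syp-1 rose most, by 0.74.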
